A study of Drosophila melanogaster with 11 samples.

Results

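Digestive enzyme genes of the Drosophila gut were followed through RNAseq of female thoracic muscle and of larval and adult fat body. They were taken as candidate markers of gut RNA carried over at dissection, and carry-over itself was not tested. Members were taken by symbol alone, as every Jon gene (Jonah serine proteases), every Mal-A and Mal-B gene (maltases), Amy-p and Amy-d (amylases), every Lys gene with a capital letter (lysozymes) and the 11 trypsin genes from alphaTry to lambdaTry. This gave 46 of 15603 genes, namely 16 Jonah proteases, 11 trypsins, 10 maltases, 7 lysozymes and 2 amylases.

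Jonah proteases and trypsins are secreted serine proteases that cut dietary protein in the midgut lumen. Amylases break starch into maltose, and maltases split maltose into glucose. Digestive lysozymes cut the walls of ingested bacteria, which fly larvae take up with rotting food. Neither muscle nor fat body is known as a main source of these secreted proteases, so their RNA in such a sample is commonly read as a sign of gut tissue.

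The study asked how flies respond to mitochondrial proteostatic stress. Thoraces came from adults whose RU486-inducible tubulinGeneSwitch driver was crossed to UAS-dOTC (ΔOTC, a misfolding mitochondrial protein), to ND75 RNAi (knockdown of a complex I subunit) or, as the control, to w1118. All 3 thorax groups received RU486, which switched the driver on for 24 hr in flies aged 7 days. The study's legend names a daughterless driver where the sample labels name tubulin. Fat bodies came from L3 larvae or 7-day-old adults, either wild type (DaGeneSwitch x UAS-dOTC) or PGAM5 null on both sides of that cross, with RU486 at 200 µM or without it. Adults marked with RU486 had received it as larvae. Every fat body group carries UAS-dOTC, so RU486 without ΔOTC is not represented among them, and DaGeneSwitch drives expression throughout the body rather than in the fat body alone. According to the methods, thoraces were stripped of the intestine and fat bodies were isolated by hand, with 15 flies pooled per sample. Each of the 11 conditions has 1 library, so no difference below has a replicate check and no p-value is given.

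Values are FPKM, fragment levels set for transcript length and library size, and ratios are taken within each of the 3 tables only. Steps in the low values gave about 3000000 to 8840000 fragments behind each library, the lowest being the ND75 RNAi thorax. Ranges in brackets after a ratio are exact conditional binomial 95% intervals and cover counting error only. The tissue labels held in the main: flight muscle genes summed to 32027 to 41436 FPKM in thoraces and to 336 to 1658 FPKM in fat bodies. Other tissues were not absent. Fat body genes summed to 14138 to 17346 FPKM in thoraces, and salivary glue genes to 38057 to 168872 FPKM in larval fat bodies. Yolk protein genes Yp1 and Yp2 stayed at or below 1.12 FPKM in larvae and at or above 21340.5 FPKM in adult fat bodies. A further yolk protein gene, Yp3, had 10.2 to 70.6 FPKM in larvae and at least 12729 FPKM in adult fat bodies. The table of the adult libraries carries a title line that says larval, and these yolk protein levels go with its sheet name, which says adult.

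**Figure D1:**
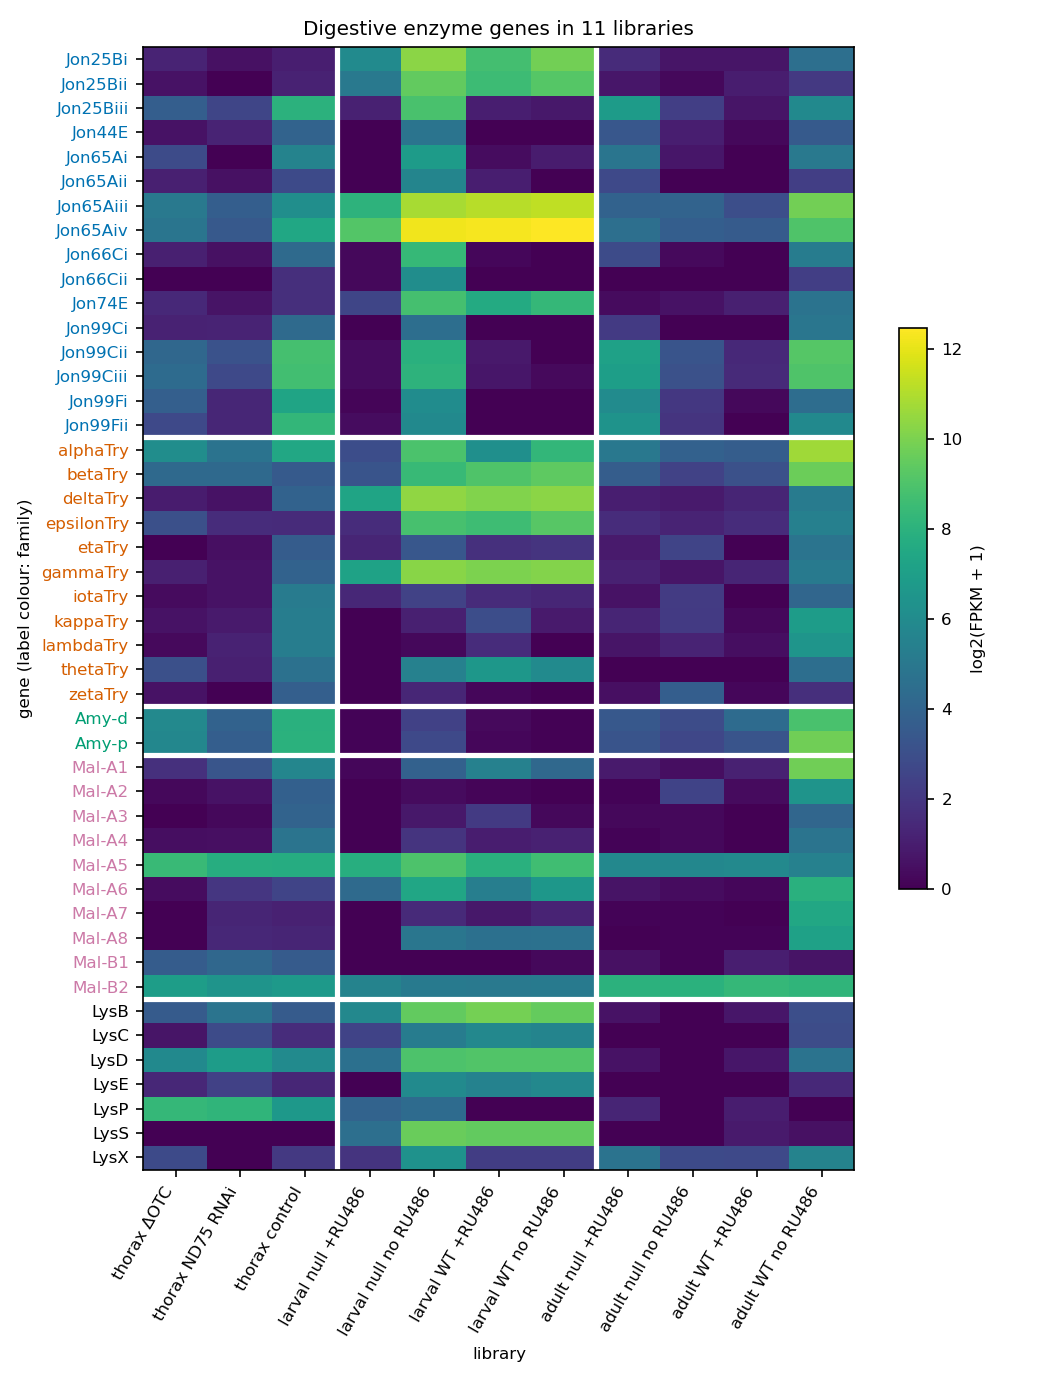
Level of each of the 46 digestive enzyme genes (rows, grouped and coloured by family) in each of the 11 libraries (columns, 1 library per condition), as log2(FPKM + 1). White lines separate the thorax, larval and adult tables, and 10 FPKM or more was reached by 33 genes in control thorax, by 34 in PGAM5 null larvae without RU486, by 21 in each wild-type larval library and by 36 in wild-type adults without RU486.

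Enzyme RNA was present in all 11 libraries and its amount was far from even. Summed over the 46 genes, the level was 1235 FPKM in ΔOTC thorax and 895 FPKM in ND75 RNAi thorax, against 3398 FPKM in control thorax. In larval fat body it was 1657 FPKM in PGAM5 null with RU486, 17598 FPKM in PGAM5 null without RU486, 14200 FPKM in wild type with RU486 and 16626 FPKM in wild type without RU486. In adult fat body it was 1030 FPKM in PGAM5 null after RU486, 426 FPKM in PGAM5 null without RU486, 467 FPKM in wild type after RU486 and 9052 FPKM in wild type without RU486. As a share of all FPKM in a library, the genes made up 0.0505% to 1.75%. Each tissue thus had libraries of high and of low level, and the low ones were both treated thoraces, 1 of 4 larval and 3 of 4 adult libraries. In bulk samples, fewer gut cells, less enzyme RNA per gut cell and expression in the sampled tissue itself cannot be told apart.

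**Figure D2:**
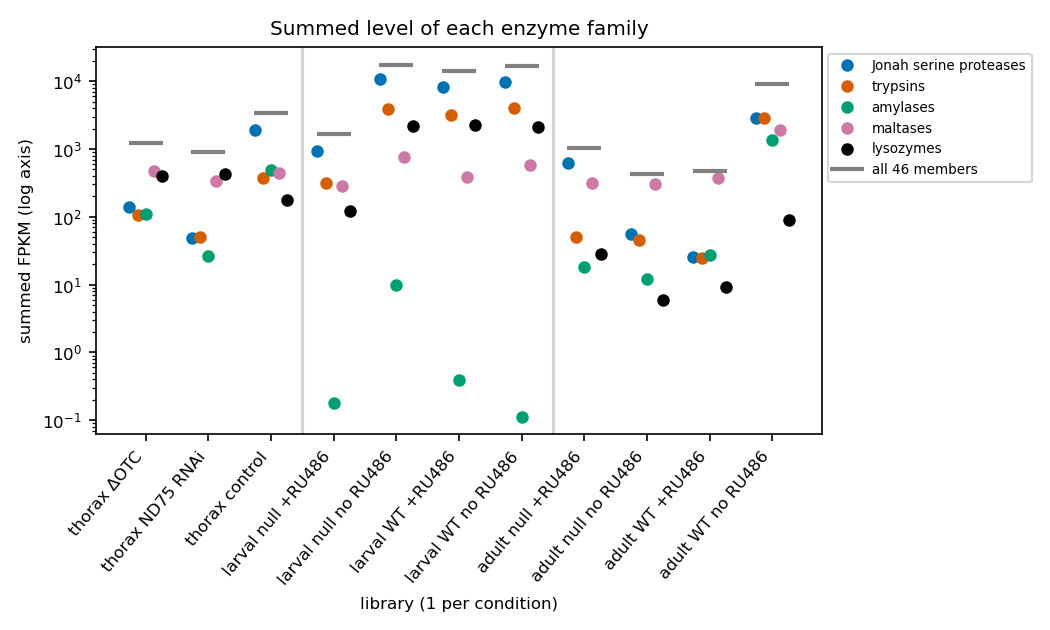
Summed FPKM of each enzyme family (coloured points, log axis) and of all 46 genes (grey bars) in each library, 1 library per condition. Larval libraries hold almost no amylase, at 0.112 to 0.393 FPKM in 3 of the 4, whereas wild-type adults without RU486 reach 1348 FPKM.

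In the thorax, both treatments carried less protease, trypsin and amylase RNA than the control. A gene was assessed at 10 FPKM or more in the library it was set against, and was called lower at a ratio of 0.5 or less and higher at 3 or more, the thresholds of the study's legends. With ΔOTC, 26 of the 33 enzyme genes assessed were lower, where 6.66% of all assessed genes were, and 1 was higher, where 1.02% were. With ND75 RNAi, 26 of 33 were again lower, against a background of 8.64%, and none was higher, against 0.255%. The median log2 ratio of (FPKM + 1) was taken over the 45 members that reached 1 FPKM in one library of the pair or both, and was -2.13 for ΔOTC and -2.75 for ND75 RNAi, beside 0.06 and -0.17 over all genes. Both comparisons share the control library, so their likeness is not a second observation.

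All 11 Jonah proteases assessed were lower in both treatments. Jon99Cii, the most abundant member in control thorax, had 17.0 FPKM in ΔOTC thorax and 7.83 FPKM in ND75 RNAi thorax, against 444 FPKM in the control. Its neighbour Jon99Ciii had 19.5 FPKM in ΔOTC and 5.66 FPKM in ND75 RNAi, against 412 FPKM in the control. Jon99Fii had 5.63 FPKM in ΔOTC and 1.55 FPKM in ND75 RNAi, against 301.5 FPKM in the control, which gave ratios of 0.0187 (0.0113 to 0.0282) and 0.00514 (0.000907 to 0.0129). Jon65Ai had 6.20 FPKM in ΔOTC, was listed at 0 in ND75 RNAi, and had 46.2 FPKM in the control.

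Of 10 trypsins assessed, 9 were lower in both treatments, and both amylases were. Amy-p had 53.7 FPKM in ΔOTC and 12.2 FPKM in ND75 RNAi, against 246 FPKM in the control. Amy-d had 57.4 FPKM in ΔOTC and 14.02 FPKM in ND75 RNAi, against 238 FPKM in the control. Thus amylase RNA was lowest with ND75 RNAi and intermediate with ΔOTC. The trypsin etaTry was listed at 0 in ΔOTC, with 0.444 FPKM in ND75 RNAi and 11.4 FPKM in the control. Another trypsin, zetaTry, had 0.501 FPKM in ΔOTC, was listed at 0 in ND75 RNAi, and had 12.5 FPKM in the control. The maltase Mal-A3 was listed at 0 in ΔOTC, with 0.205 FPKM in ND75 RNAi and 14.9 FPKM in the control.

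The 7 assessed members that were not lower in either treatment were LysB, LysD, LysP, Mal-A5, Mal-B1, Mal-B2 and betaTry. LysP, known as a lysozyme of the adult salivary gland, had 316 FPKM in ΔOTC and 281 FPKM in ND75 RNAi, against 99.02 FPKM in the control. Its ratio was 3.19 (2.75 to 3.69) with ΔOTC and 2.84 (2.41 to 3.34) with ND75 RNAi, and the ΔOTC call was lost when libraries were scaled to their median ratio. Mal-A5, the most abundant member over the 3 thoraces, had 346 FPKM in ΔOTC and 214 FPKM in ND75 RNAi, against 211 FPKM in the control. Mal-B2 had 122 FPKM in ΔOTC and 86.7 FPKM in ND75 RNAi, against 104 FPKM in the control. These 3 genes held most of the enzyme RNA left in the treated thoraces, where Mal-A5 alone was 28.0% of the summed level with ΔOTC and LysP 31.4% with ND75 RNAi.

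**Figure D3:**
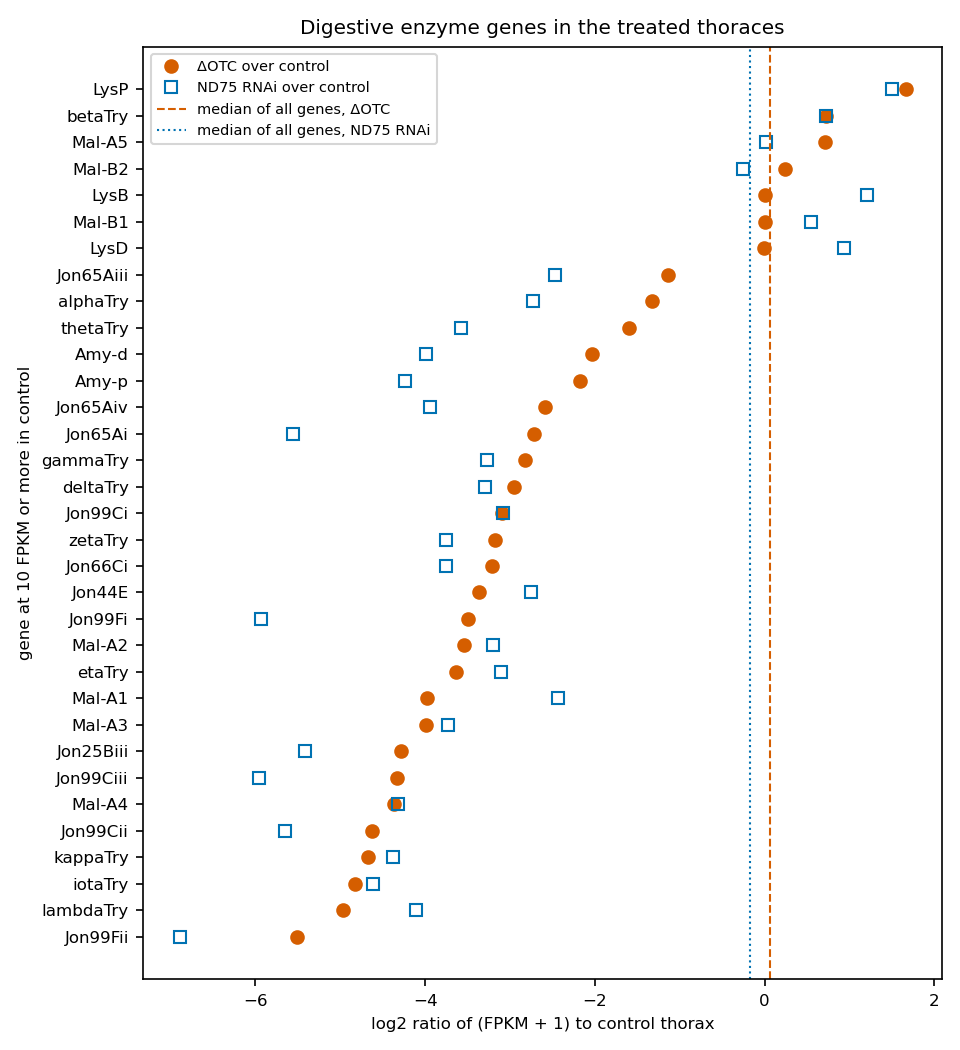
Log2 ratio of (FPKM + 1) in ΔOTC thorax (filled circles) and ND75 RNAi thorax (open squares) to the shared control thorax, for the 33 enzyme genes at 10 FPKM or more in the control, 1 library per condition. Both symbols of 26 genes lie at least 1 unit below 0, and 7 genes (LysP to LysD) sit near or above the vertical lines that mark the medians of all genes.

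Set directly against each other, ΔOTC thorax had somewhat more enzyme RNA than ND75 RNAi thorax. The median log2 ratio was 0.54 over members and 0.26 over all genes. Of 12 members assessed, 2 were higher (Amy-p and Amy-d, with a background of 1.79%) and 1 was lower (LysB, with a background of 2.87%). The 2 higher genes are near-identical copies and count as 1 when copies are summed. Amy-p had a ratio of 4.41 (3.30 to 5.95) and LysB one of 0.411 (0.224 to 0.735). LysB itself had 10.9 FPKM in ΔOTC and 26.6 FPKM in ND75 RNAi, with 10.9 FPKM in the control.

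Most other gut genes assessed, which the symbol rule left out, moved beside the members in the thorax. Of 23 matched, 10 were assessed. Of these, 8 were lower with ΔOTC, where 6.66% of all assessed genes were, and 9 with ND75 RNAi, where 8.64% were. CG30025 and CG30031, lower in both, tracked the member trypsins gammaTry and deltaTry and may share reads with them. They are thus not independent of the members. The serine protease yip7 had 45.9 FPKM in ΔOTC and 9.85 FPKM in ND75 RNAi, against 343 FPKM in the control. The intestinal lipase mag (magro) had 0.748 FPKM in ΔOTC and 0.759 FPKM in ND75 RNAi, against 62.0 FPKM in the control. Some gut genes did not fall. PGRP-SC2 had 110 FPKM in ΔOTC and 235 FPKM in ND75 RNAi, against 101 FPKM in the control. Bace had 17.8 FPKM in ΔOTC and 11.5 FPKM in ND75 RNAi, against 4.39 FPKM in the control. Of 17 eggshell genes, 4 were assessed and 3, the vitelline membrane genes Vm26Aa, Vm26Ab and Vm34Ca, were lower in both treatments. The shares over all genes were the same 6.66% and 8.64%. Vm26Aa had 1.23 FPKM in ΔOTC and 3.47 FPKM in ND75 RNAi, against 120.2 FPKM in the control, whereas the chorion gene Cp15 had 11.7 FPKM in ΔOTC and 8.45 FPKM in ND75 RNAi, against 14.4 FPKM in the control. The part of these genes' tissues in the enzyme result was not tested.

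In adult fat body, wild-type flies without RU486 stood apart from the other 3 libraries by their high enzyme RNA. After larval RU486, 34 of 36 members assessed were lower in wild type, where 9.01% of all assessed genes were, and none was higher, where 0.319% were. The median log2 ratio was -4.52 over the members and -0.07 over all genes. All 13 Jonah proteases, 10 trypsins, 2 amylases and 2 lysozymes assessed were lower, together with 7 of 9 maltases. In PGAM5 null against wild type, both without RU486, 34 of 36 were likewise lower, with a background of 14.9%, none was higher, with a background of 0.12%, and the medians were -4.31 over members and -0.10 over all genes. Both comparisons rest on the same wild-type library, whose level they therefore share.

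The trypsin alphaTry was the most abundant member, with 31.3 FPKM in PGAM5 null after RU486, 13.6 FPKM in PGAM5 null without RU486 and 11.8 FPKM in wild type after RU486, against 1674 FPKM in wild type without RU486. Next to it, betaTry had 11.7, 4.58 and 7.47 FPKM in those libraries, against 824 FPKM in wild type without RU486. Jon65Aiii had 13.9, 14.4 and 7.09 FPKM, against 905 FPKM in wild type without RU486. In each case the wild-type library without RU486 was far above the other 3, among which alphaTry and betaTry were highest in PGAM5 null after RU486.

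Most carbohydrate enzymes were also highest in wild type without RU486, some maltases by a wider margin than these proteases. By family the margin was smaller. The summed ratio in wild type after RU486 was 0.0206 for amylases and 0.201 for maltases. It was 0.00888 for Jonah proteases and 0.00862 for trypsins. Amy-p had 8.47 FPKM in PGAM5 null after RU486, 5.38 FPKM in PGAM5 null without RU486 and 8.42 FPKM in wild type after RU486, against 871 FPKM in wild type without RU486. Mal-A1 had 0.882, 0.364 and 1.20 FPKM in those libraries, against 871 FPKM in wild type without RU486, and its ratio in wild type after RU486 was 0.00138 (0.000754 to 0.00232). Mal-A7 had 0.0995 and 0.0923 FPKM in the PGAM5 null libraries and was listed at 0 in wild type after RU486, against 177 FPKM in wild type without RU486. Mal-A8 was listed at 0 in PGAM5 null after RU486 and had 0.0932 FPKM in PGAM5 null without RU486 and 0.0880 FPKM in wild type after RU486, against 138 FPKM in wild type without RU486. These maltases were thus nearly confined, among the adult fat body libraries, to wild type without RU486. A further 10 members were listed at 0 in at least 1 of the other libraries and had 16.1 to 59.2 FPKM in wild type without RU486 (Jon65Ai, Jon66Ci, Jon99Ci, Jon99Fii, LysD, Mal-A3, Mal-A4, etaTry, iotaTry and thetaTry).

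Both exceptions were maltases with an even level in all 4 adult libraries. Mal-B2 had 258 FPKM in PGAM5 null after RU486, 245 FPKM in PGAM5 null without RU486, 320.0 FPKM in wild type after RU486 and 287 FPKM in wild type without RU486. Mal-A5 had 55.7, 54.6, 57.6 and 44.2 FPKM in the same order. Mal-A5 lies in a run of 8 neighbouring Mal-A genes of which the other 7 were at 16.1 to 871 FPKM in wild type without RU486 and at most 4.76 FPKM in the other adult libraries. Mal-B2 alone made up 57.6% of the summed enzyme level in PGAM5 null without RU486 and 68.5% in wild type after RU486. These 2 maltases therefore did not behave as the other members did.

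**Figure D4:**
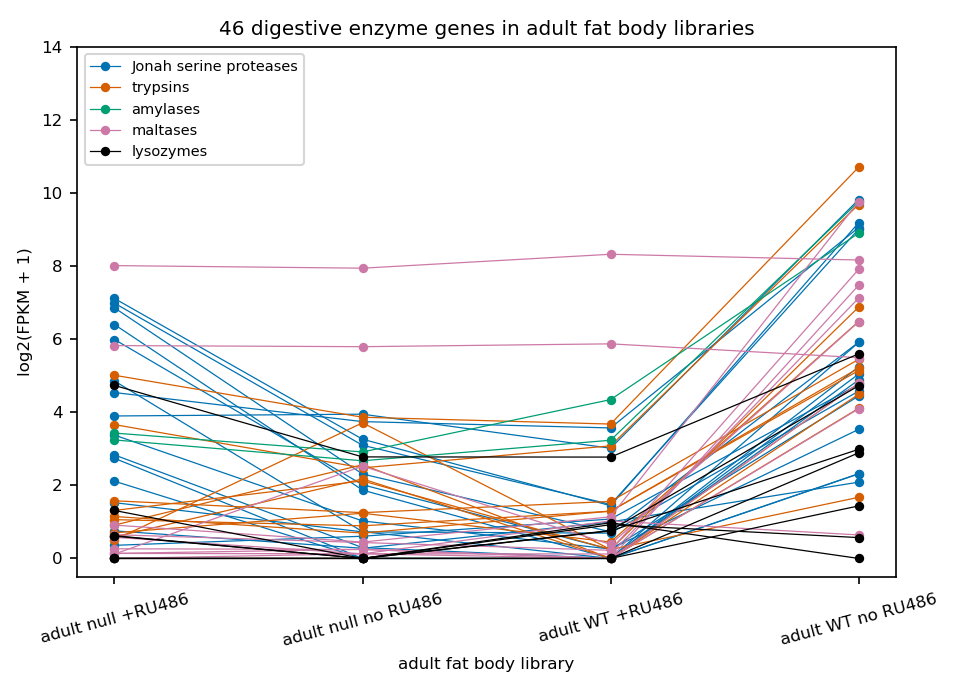
Level of the 46 genes in the 4 adult fat body libraries as log2(FPKM + 1), with 1 point per gene and library and thin lines that join the points of a gene. Most genes are high in wild type without RU486 alone, the maltases Mal-B2 and Mal-A5 are level across the libraries, and a group of Jonah proteases is raised in PGAM5 null with RU486.

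In PGAM5 null adults, some of the same enzymes were higher after RU486. After RU486, 6 members could be assessed against PGAM5 null without RU486, of which 1 was lower (zetaTry, background 4.77%) and none was higher (background 0.399%). Since that rule looks only at genes already expressed in the library without RU486, a second rule was also used. It took genes that reached 10 FPKM in one library of the pair or both, and asked for a 2-fold rise. It is given for chosen comparisons and in that direction only. A member below 10 FPKM in the reference enters through the library where it is high, which favours the call. Counts by this rule are therefore descriptions and not tests. By it, 9 of 14 members were higher after RU486, where 4.38% of all genes were: Jon25Biii, Jon65Ai, Jon99Cii, Jon99Ciii, Jon99Fi, Jon99Fii, LysX, alphaTry and betaTry. Jon99Cii had 138 FPKM in PGAM5 null after RU486, against 8.60 FPKM in PGAM5 null without RU486, a ratio of 16.01 (11.6 to 22.7), with 1.72 and 582 FPKM in wild type after and without RU486. Jon99Ciii had 126 FPKM in PGAM5 null after RU486, against 7.56 FPKM without it, with 1.79 and 516 FPKM in wild type after and without RU486. Jon25Biii had 115 FPKM in PGAM5 null after RU486, against 3.96 FPKM without it, with 0.657 and 59.5 FPKM in wild type after and without RU486. So Jon25Biii, and likewise Jon99Fi and Jon99Fii, had more FPKM there than in wild-type adults without RU486, whereas both amylases had far less.

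With both genotypes after RU486, PGAM5 null flies had no member lower of 5 assessed, with a background of 7.74%, and none higher, with a background of 0.282%. By the second rule 9 of 14 were higher, where 5.03% of all genes were, again as a description only. Some members ran the other way in PGAM5 null, among them the trypsin zetaTry, with 12.1 FPKM in PGAM5 null without RU486, against 0.421 FPKM in PGAM5 null after RU486, 0.184 FPKM in wild type after RU486 and 2.19 FPKM in wild type without RU486. At lower levels, Mal-A2 had 0.0869 FPKM in PGAM5 null after RU486, against 4.76 FPKM without it, and etaTry 0.883 against 4.92 FPKM.

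Gut genes outside the symbol rule followed the members in the adult fat body. All 14 assessed were lower in wild type after RU486 than without it, where 9.01% of all assessed genes were. Without RU486, all 14 were lower in PGAM5 null than in wild type, where 14.9% were. CG30025 and CG30031, which may share reads with gammaTry and deltaTry, are among these genes. GATAe, a GATA factor that keeps midgut genes active, had 0.0597 FPKM in PGAM5 null after RU486, 1.66 FPKM in PGAM5 null without RU486 and 2.52 FPKM in wild type after RU486, against 21.3 FPKM in wild type without RU486. Another gut regulator, cad, had 5.19, 4.34 and 13.9 FPKM in those libraries, against 20.0 FPKM in wild type without RU486. It was not called lower in wild type after RU486. Other organs showed different patterns. Eggshell genes summed to 5428 FPKM in PGAM5 null after RU486 and 180 FPKM in PGAM5 null without RU486. Of the 5428 FPKM, the chorion gene Cp15 held 3683 FPKM. In wild type, eggshell genes summed to 97.4 FPKM after RU486 and 55.8 FPKM without it. Jonah proteases summed to 617 FPKM in the library with the most eggshell RNA. They summed to 2843 FPKM in wild type without RU486, which had the least. Malpighian tubule genes summed to 11.8 and 111 FPKM in PGAM5 null after and without RU486. In wild type they summed to 524 and 672 FPKM, nearly as high after RU486 as without it. What part such tissues had in the enzyme levels was not tested.

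In larval fat body, the PGAM5 null library with RU486 was the low one. Against PGAM5 null without RU486, 32 of 34 members assessed were lower, where 17.5% of all assessed genes were, and none was higher, where 1.55% were. The median log2 ratio was -4.41 over members and -0.26 over all genes. Against wild type with RU486, 19 of 21 were lower, with a background of 9.63%, none was higher, with a background of 1.78%, and the medians were -3.00 over members and 0.12 over all genes. These comparisons share the low library.

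The most abundant larval members were Jonah proteases, trypsins and lysozymes. Jon65Aiv, the most abundant larval member, had 564 FPKM in PGAM5 null with RU486, 4746 FPKM in PGAM5 null without RU486, 5117 FPKM in wild type with RU486 and 5675 FPKM in wild type without RU486. Jon65Aiii had 263, 1830.4, 2214 and 2440 FPKM in the same order. The trypsin deltaTry had 152, 1329, 1086 and 1248 FPKM, and gammaTry followed it at 146, 1238, 1022 and 1158 FPKM. In each of these the PGAM5 null library with RU486 was lowest, and the other 3 were close to each other.

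Among lysozymes, LysB had 54.6 FPKM in PGAM5 null with RU486, 711 FPKM in PGAM5 null without RU486, 927 FPKM in wild type with RU486 and 746 FPKM in wild type without RU486. LysS had 22.6, 779.5, 720.3 and 711 FPKM in the same order, and it was at or below 0.896 FPKM in every thorax and adult library. LysE, thetaTry and Mal-A8 were listed at 0 in PGAM5 null with RU486 and had 23.0 to 94.5 FPKM in the other larval libraries. Neither LysP nor Mal-B2 was lower in PGAM5 null larvae with RU486 than without. Mal-B2 had 46.8, 34.0, 31.6 and 33.1 FPKM in the order above, and LysP had 14.9 and 19.5 FPKM in the PGAM5 null libraries with and without RU486 and was listed at 0 in both wild-type libraries.

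In wild-type larvae, RU486 went with little difference in the enzymes. Of 21 members assessed, 3 were lower, a share below the 30.5% of all assessed genes, and none was higher, where 0.861% were. The lower genes were alphaTry, at 73.1 FPKM with RU486 against 304 FPKM without it, Mal-A6, at 39.8 against 97.6 FPKM, and Jon25Bi, at 426 against 894 FPKM. Mal-A1 had the highest ratio, 2.51 (2.12 to 2.97), with 44.3 FPKM with RU486 against 17.7 FPKM without it. The median log2 ratio was -0.14 over members and -0.50 over all genes, and the sign of the member median turned to 0.0898 or 0.44 when libraries were scaled to the median ratio or the upper quartile, so no direction is given for the group.

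Among members, PGAM5 null and wild-type larvae without RU486 differed mainly in 1 set of Jonah genes. Of 21 members assessed, none was lower, with a background of 5.09%, and none was higher, with a background of 0.536%. By the second rule, however, 13 of 34 were higher, where 3.83% of all genes were, and they were 11 Jonah proteases, LysP and LysX. All 13 were below 10 FPKM in wild type and entered by their PGAM5 null level, so this count is a description. The 11 Jonah proteases had 21.9 to 467 FPKM in PGAM5 null without RU486. In wild type without RU486 they had at most 0.947 FPKM, and 8 were listed at 0. Jon25Biii had 467 FPKM in PGAM5 null without RU486, against 0.751 FPKM in wild type, with 1.20 FPKM in PGAM5 null and 1.05 FPKM in wild type when RU486 was given. Jon66Ci had 329 FPKM in PGAM5 null without RU486 and was listed at 0 in wild type without RU486, with 0.196 and 0.171 FPKM in PGAM5 null and wild type given RU486. LysX had 80.5 FPKM in PGAM5 null without RU486, against 3.79 FPKM in wild type. The other 5 Jonah genes (Jon25Bi, Jon25Bii, Jon65Aiii, Jon65Aiv and Jon74E) had ratios of 0.7503 to 1.43 between those libraries.

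**Figure D5:**
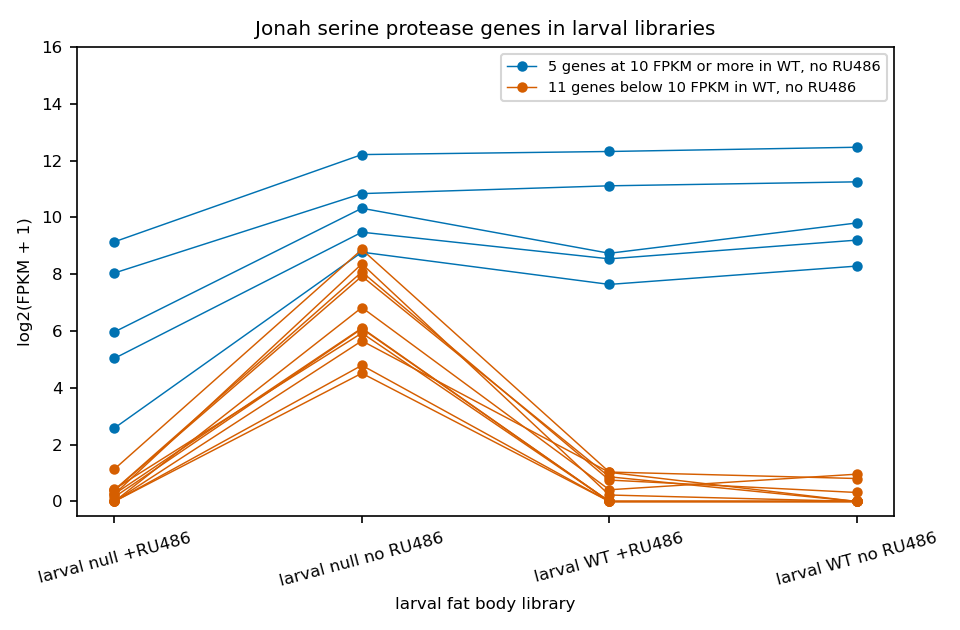
Level of the 16 Jonah protease genes in the 4 larval fat body libraries as log2(FPKM + 1), 1 point per gene and library, with lines that join the points of a gene. The 11 genes in orange, below 10 FPKM in wild type without RU486, are high in PGAM5 null without RU486 alone, whereas the 5 in blue are high in 3 libraries and lower in PGAM5 null with RU486.

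These Jonah sets were drawn after their values were seen, so their sums in the other libraries are a description with no test. Summed over the 11 genes, the level was 77.2 FPKM in ΔOTC thorax and 25.2 FPKM in ND75 RNAi thorax, against 1673 FPKM in control thorax. The other 5 genes were lower with them, at 63.5 FPKM in ΔOTC and 23.5 FPKM in ND75 RNAi, against 248 FPKM in the control. In larvae the 11 genes summed to 2.71 FPKM in PGAM5 null with RU486, 1714 FPKM in PGAM5 null without RU486, 4.10 FPKM in wild type with RU486 and 1.94 FPKM in wild type without RU486. The 5 genes summed to 925, 9007, 8328 and 9908 FPKM in the same larval order. In adult fat body the 11 genes summed to 578 FPKM in PGAM5 null after RU486, 27.8 FPKM in PGAM5 null without RU486, 4.55 FPKM in wild type after RU486 and 1353 FPKM in wild type without RU486. The 5 genes summed there to 39.1, 28.2, 20.7 and 1489.6 FPKM. Thus both sets were low together in the treated thoraces and in wild-type adults after RU486, and they came apart in larvae and in PGAM5 null adults after RU486, where the 11 genes held most Jonah RNA.

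Gut genes outside the rule followed the members in larvae where PGAM5 null with RU486 was compared, and less so otherwise. Of 14 assessed, 13 were lower in PGAM5 null with RU486 than without, where 17.5% of all assessed genes were. Against wild type with RU486, 9 of 11 assessed were lower, where 9.63% were. CG30025 and CG30031, which may share reads with gammaTry and deltaTry, are among the lower genes in both comparisons. In wild type, 4 of 11 gut genes assessed were lower with RU486, where 30.5% of all assessed genes were. Another 2 were higher, where 0.861% were, while no member assessed was. Without RU486, none of 11 assessed was lower in PGAM5 null than in wild type, where 5.09% were. Of these 11, 3 were higher (Peritrophin-15a, Peritrophin-15b and CG6277), where 0.536% were, while no member assessed was. Peritrophin-15a, a protein of the chitin-rich sheath that lines the midgut, had 2.93 FPKM in PGAM5 null with RU486, 1543 FPKM in PGAM5 null without RU486, 844 FPKM in wild type with RU486 and 224 FPKM in wild type without RU486. Salivary glue genes, which mark the larval salivary gland, summed to 38057, 168872, 59440.3 and 135167 FPKM in the same order, with the lower values in both libraries given RU486. Glue levels and enzyme levels therefore did not run in parallel in wild type with RU486, and the part of salivary gland RNA was not tested.

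Position and sequence bear on how single members may be read. In a current annotation (release 6), 43 of the 46 genes lie in 10 runs of neighbouring members, the longest holding all 11 trypsins. Levels within a run were not alike: alphaTry to betaTry ratios went from 0.139 to 16.5 and LysB to LysD ratios from 0.180 to 2.33 over libraries where at least 1 gene of the pair reached 10 FPKM. In libraries chosen the same way, the near-identical gammaTry and deltaTry had ratios of 0.928 to 0.987, and Jon99Cii to Jon99Ciii ratios lay between 0.870 and 1.13. At lower levels the ratios spread further, to 0.722 and 1.16 for gammaTry to deltaTry and to 1.38 for Jon99Cii to Jon99Ciii, with Jon99Cii listed at 0 in wild-type larvae without RU486. CG30025 and CG30031, a pair outside the rule, tracked gammaTry and deltaTry as closely, with 1114 and 1157 FPKM in the larval wild-type library not given RU486. Reads may be shared among such copies, so their separate values are uncertain and count as few independent genes. An FPKM of exactly 0 can also be a failed estimate, as for the serum protein gene Lsp1beta, which the larval wild-type library given RU486 has at 0 and the other larval libraries at 24234 to 49866 FPKM, so no fold is given against a value of 0.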

How the data were processed

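TruSeq libraries of female thorax RNA and of fat body RNA from both stages were run on a MiSeq, 1 library for each of 11 conditions. The authors mapped reads to genome release 5.2 and computed FPKM with the Tuxedo suite (Bowtie, TopHat and Cufflinks, versions not given in the sources used here), and the deposited values are that FPKM, in 3 tables used as they stand. All columns were mapped to samples by their names. Each gene's ratio was taken within a table, with a pseudocount of 1 for log2 ratios and medians. No test was run across genes, since no condition has a second library. Fragments per library were estimated from steps of low FPKM, with transcript lengths of a release 6 annotation that matched 14927 genes by identifier. Between 79.5% and 84.8% of low values lay within 0.1 of a whole fragment. Depth recovery and calls were tested on simulated data. Members and the 11 marker lists (110 symbols) were chosen with earlier results of these data known. Named are the 8 most abundant members of each table, the highest and lowest ratio of each comparison, members listed at 0 in 1 library and at 10 FPKM or more in another, and up to 4 genes of a marker list. Other genes named were chosen after their values were seen. Alternatives changed the FPKM minimum, the fold, the scaling, the pseudocount and the merging of copies. Merging summed Amy-p with Amy-d, LysB with LysC, LysD and LysE, alphaTry with betaTry, and gammaTry with deltaTry. Jon99Cii and Jon99Ciii were kept apart. Analyses used Python 3.11.15, pandas 2.3.3 and scipy 1.17.1.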

Additional observations from a re-analysis of the deposited data

Results flagged for a closer look

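The summed level of the 46 enzyme genes differed in opposite directions between genotypes and treatments, with 1 library per condition, and no difference between these ratios was tested. In adult fat body, the ratio of RU486 to no RU486 was 2.42 in PGAM5 null and 0.0516 in wild type. The ratio of PGAM5 null to wild type was 2.20 after RU486 and 0.0471 without it, which uses the same 4 libraries. In larval fat body, the ratio of PGAM5 null to wild type was 0.117 with RU486 and 1.06 without it.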

How the results depend on the processing

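No paired analysis was possible because each condition has 1 library, and for the same reason no replicate was left out. Condition, dissection and library cannot be told apart. Counts of lower members were within 1.5 times of the reported count in 74 of 88 alternatives and counts of higher members in 64 of 88, most of the rest being counts of 0 to 9. Where most assessed members were lower (both thorax comparisons with control, PGAM5 null larvae with RU486 and wild-type or PGAM5 null adults against wild type without RU486), the median log2 ratio of the members stayed negative and the summed ratio stayed at or below 0.363 under every alternative run. The cause of each move below was not tested.

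With a minimum of 50 FPKM, 11 members were lower in ΔOTC and 11 in ND75 RNAi thorax, 17 in wild-type adults after RU486, 17 in PGAM5 null against wild-type adults without RU486, and 0 in PGAM5 null adults after RU486, since fewer genes were assessed, and between ΔOTC and ND75 RNAi thorax 0 were lower and 0 higher. With a minimum of 1 FPKM, the higher members were 2 in ΔOTC, 1 in ND75 RNAi, 7 in ΔOTC against ND75 RNAi (9 lower), 3 in PGAM5 null against wild-type larvae without RU486, 7 in PGAM5 null adults after RU486 (6 lower), 1 in PGAM5 null against wild-type adults without RU486 and 3 in that pair after RU486 (2 lower). With 10 FPKM asked of either library and a 3-fold rise, the higher members were 4 in ΔOTC against ND75 RNAi, 13 in PGAM5 null against wild-type larvae without RU486, 1 in that pair with RU486, 7 in PGAM5 null adults after RU486, 1 in PGAM5 null against wild-type adults without RU486 and 7 in that pair after RU486. A 2-fold rule both ways gave 2 higher in ND75 RNAi, 5 in ΔOTC against ND75 RNAi, 1 in wild-type larvae with RU486, 1 in PGAM5 null adults after RU486 and 2 in PGAM5 null against wild-type adults after RU486. A 3-fold rule both ways left 0 lower in ΔOTC against ND75 RNAi and 1 lower in wild-type larvae with RU486. Summing near-identical copies left 1 higher in ΔOTC against ND75 RNAi.

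A pseudocount of 0.1 moved the median log2 ratio to -3.49 in ΔOTC, -4.05 in ND75 RNAi, -6.49 in wild-type adults after RU486 and -5.41 in PGAM5 null against wild-type adults without RU486. A pseudocount of 10 gave -1.10, -1.17, -1.95 and -1.98 for the same comparisons, and -2.79 in PGAM5 null larvae with RU486. With no filter on low values, PGAM5 null against wild-type larvae with RU486 had a median of -1.01.

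Scaling libraries to their median ratio gave 0 higher in ΔOTC, 1 higher in ND75 RNAi and 2 lower in ΔOTC against ND75 RNAi, and ratios of summed FPKM of 0.340, 0.290 and 1.17 for these pairs, 0.105 in PGAM5 null larvae with RU486 and 1.09 in PGAM5 null against wild-type larvae without RU486. In wild-type larvae with RU486 it turned the median to 0.0898 and the summed ratio to 1.002. Scaling to the upper quartile turned them to 0.44 and 1.26, with 1 lower and 1 higher, and gave 1 higher in ND75 RNAi and 2 lower in ΔOTC against ND75 RNAi. Summed ratios were then 0.349 in ΔOTC, 0.291 in ND75 RNAi, 1.20 between both, 0.111 in PGAM5 null larvae with RU486, 1.12 and 0.0989 in PGAM5 null against wild-type larvae without and with RU486, 0.0591 and 2.52 in wild-type and PGAM5 null adults after RU486, and 0.0547 and 2.34 in PGAM5 null against wild-type adults without and after RU486.

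Without the most abundant member of a table, the summed ratio was 0.279 in ΔOTC, 0.214 in ND75 RNAi, 1.31 between both, 0.829 and 0.0851 in wild-type and PGAM5 null larvae with RU486, 1.17 and 0.120 in PGAM5 null against wild-type larvae without and with RU486, 0.0618 in wild-type adults after RU486 and 0.0559 in PGAM5 null against wild-type adults without RU486. Without lysozymes and amylases it was 0.266, 0.158 and 1.68 in the thorax pairs, 0.820 and 0.0997 in wild-type and PGAM5 null larvae with RU486, 0.129 in PGAM5 null against wild-type larvae with RU486, 0.0565 in wild-type adults after RU486 and 0.0536 in PGAM5 null against wild-type adults without RU486.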
